A study of Mus musculus with 15 samples.

Results

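The 30 genes described here make, take up, move, store or export cholesterol. They were taken as a named list, 19 genes of the synthesis pathway and 11 genes of uptake, storage and efflux, out of 21770 protein-coding genes in the GENCODE M39 annotation. A gene was given every H3K4me3 peak that reached to within 2000 bp of any of its annotated transcript starts. H3K4me3 is the trimethylation of histone H3 at lysine 4, a mark of active and poised promoters.

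Cells make cholesterol from acetyl-CoA through mevalonate and isoprenoid intermediates, close the chain into lanosterol and trim that ring system to cholesterol. When sterols run low, transcription factors that bind sterol regulatory elements (SREs) raise the synthesis and uptake genes together. When sterols are plentiful, oxysterols activate liver X receptors, which raise efflux pumps such as Abca1 and Abcg1 and the ubiquitin ligase Mylip, which sends lipoprotein receptors for degradation. In brown adipocytes most stored lipid is triglyceride, and cholesterol is mainly a membrane component.

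ChIP–seq was performed in mBA cells of mouse brown adipose tissue with 4 replicates each of 3 conditions and 1 input per condition. The sample labels call these cells primary, whereas the study's methods describe brown preadipocytes immortalized with the SV40 large T antigen and then differentiated, derived from pooled animals of both genders. In such a culture, fewer cells with a mark and less mark per cell cannot be told apart. WT cells had no treatment listed. WT + 2HG cells were WT cells given octyl d-2HG, a cell-permeable form of the metabolite 2-hydroxyglutarate, dissolved in DMSO (500 µM for 72 h by the study's methods). CLPP-KO cells lacked the mitochondrial protease CLPP, had no treatment listed and grew with added uridine, which the WT cells are not said to have received. Uridine therefore cannot be told apart from the knockout, nor DMSO from 2HG unless the WT cells also had it.

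Peak calling combined the 4 replicates of each condition against its input. This left a single list per condition (WT 12342 peaks, WT + 2HG 14059, CLPP-KO 15118), from which the replicate spread of a value cannot be read. For that reason no difference below was tested, and each is set beside the same quantity over all protein-coding genes. The depth behind the lists is unknown, since they hold no read counts. The level of a peak is given as its percentile, the percentage of peaks of its own list with an area under the curve at or below its own. The areas are not scaled between lists, and the longer lists contain more weak peaks, so that an identical peak would stand at a higher percentile in them. For this reason differences are also given after each list was cut to its 12342 strongest peaks by area, called equal-sized lists below. Of 11 brown adipocyte markers, 3 had a promoter peak in WT (Prdm16, Pparg and Ppara), 6 in WT + 2HG and 7 in CLPP-KO, while Ucp1, Fabp4, Adipoq and Dio2 had none in any list. Of 5 preadipocyte or fibroblast markers, 4 had one in every list, and 0 of 4 macrophage and 0 of 2 hepatocyte markers had one. Endothelial cells had 1 of 3 markers in every list, and skeletal muscle 1 of 4 in WT and WT + 2HG and 2 in CLPP-KO. The adipocyte markers thus moved with the conditions, and their part in the results below was not tested.

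Most cholesterol genes carried the mark in all 3 conditions. A promoter peak was present at 26 of the 30 genes in the WT list, at 27 with 2HG and at 28 in the knockout, against 51.3, 56.4 and 58.2% of all protein-coding genes. All 3 lists marked 25 of the 30, where the share over all protein-coding genes was 50.6%. Only Nsdhl, a sterol dehydrogenase of late synthesis on chromosome X, and Soat2, an acyltransferase that esterifies cholesterol in intestine and liver, had no promoter peak in any list. The marked genes were not strong ones. Their strongest promoter peak had a median percentile of 41.6 over the 26 WT genes, 38.8 over the 27 of WT + 2HG and 44.5 over the 28 of CLPP-KO, below the 59.3, 60.6 and 62.0 of all protein-coding genes with a peak. Over the 25 genes and the 11021 coding genes marked in every list, the medians were 41.9, 40.3 and 45.1 for the cholesterol genes and 59.8, 64.8 and 67.0 for all.

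**Figure D1:**
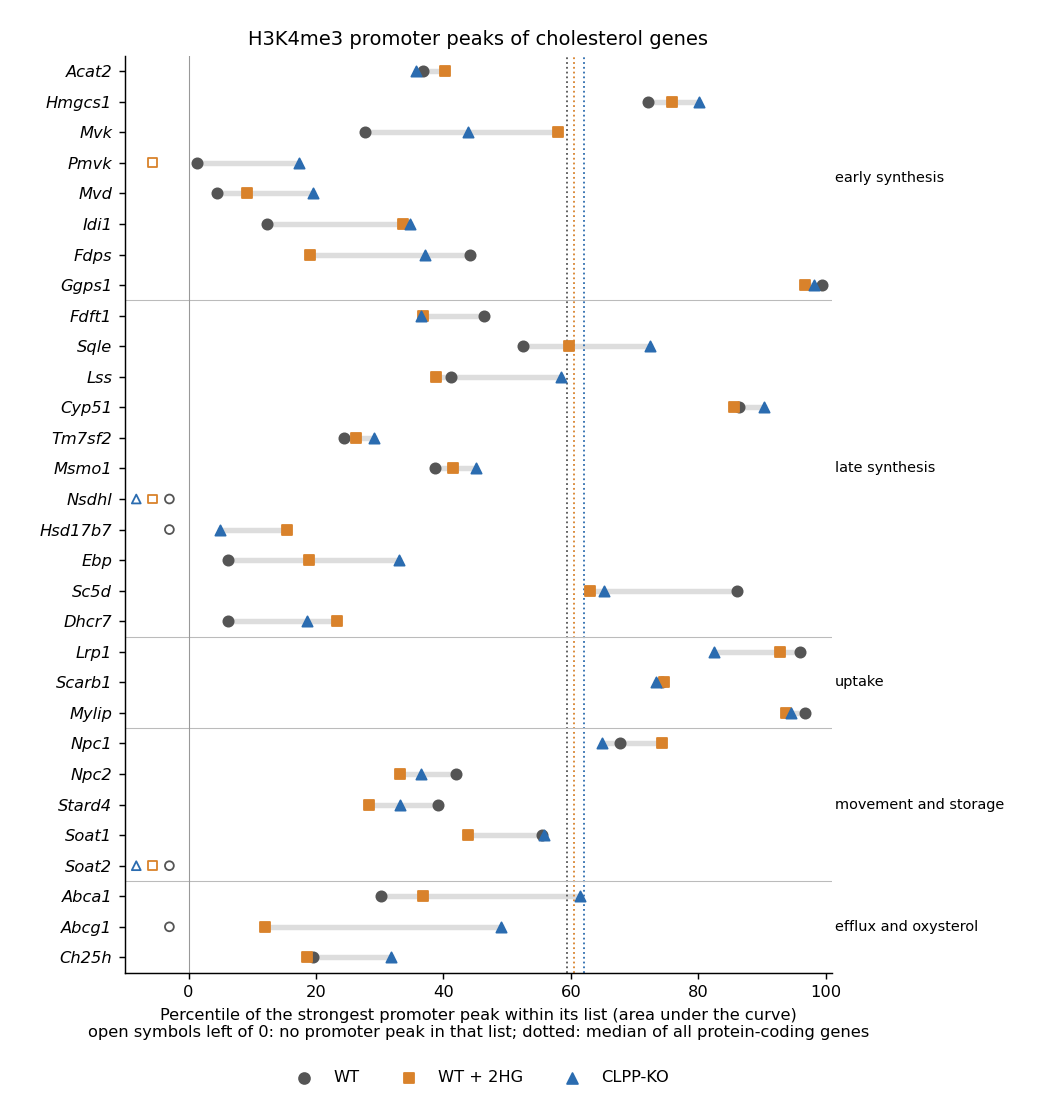
Percentile of the strongest H3K4me3 promoter peak of each of the 30 genes (rows, grouped by role) within the WT, WT + 2HG and CLPP-KO lists; the grey bar joins the values of a gene, open symbols left of 0 mark a list with no promoter peak, and dotted lines give the median over all protein-coding genes with a peak. Most synthesis genes lie left of the dotted lines at 59.3, 60.6 and 62.0, and the genes grouped under uptake (Lrp1, Scarb1 and Mylip) lie right of them.

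The promoters themselves were read from the GRCm39 reference to see what the genes share apart from the mark. In the 300 bases from 250 before to 50 after the canonical start, the median GC content was 61.5% for the cholesterol genes, 54.3% for all protein-coding genes and 59.7% for coding genes with a WT promoter peak. The ratio of observed to expected CpG dinucleotides was 0.763, 0.517 and 0.743, respectively. Soat2 had the lowest ratio of the 30 genes (0.279), followed by Dhcr7 (0.419), whose peaks were weak, and Nsdhl (0.435). These CpG-poor starts included both genes without a peak, and Msmo1 (1.10) and Sc5d (1.04) had the highest ratios. Both strands were searched for 4 short motifs. The SRE, spelled TCACNCCAC, occurred in 1 of the 30 windows, that of Hmgcs1, and in 1.34% of all coding-gene windows. It read TCACCCCAC at chr13:120151750-120151758 on the plus strand, upstream of the edge of the Hmgcs1 peak in every list. Only this spelling was searched and only in these windows, so the count does not show that the other promoters lack an SRE. The CCAAT box, spelled CCAAT, occurred in 15 of 19 synthesis windows (78.9%) and 5 of 11 uptake, storage and efflux windows (45.5%), against 39.9% of all coding-gene windows and 38.9% of those with a WT peak. The GC box, spelled GGGCGG, occurred in 22 of 30 windows (73.3%), against 42.5% of all and 63.1% of those with a WT peak. The E-box CACGTG occurred in 3 (Hsd17b7, Sc5d and Abca1), or 10.0%, against 7.81% of all and 10.5% of those with a WT peak. No matches of different motifs shared bases in these 30 windows.

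Sequence upstream of 6 starts is shown because these genes span the results: Hmgcs1 and Sqle for synthesis promoters that stood higher in CLPP-KO than in WT, Pmvk for a peak missing from WT + 2HG, Soat2 for a start never marked, and Abca1 and Abcg1 for the efflux genes that stood out in CLPP-KO. Each runs 5′ to 3′ on the gene's own strand (GRCm39), holds no annotated exon, and has matches to the GC box, the CCAAT box (ATTGG on the opposite strand) and the E-box in capitals. The Pmvk stretch precedes the canonical start and lies inside the gene, past the starts of longer annotated transcripts. Hmgcs1 is chr13:120151785-120151914 (plus), Sqle chr15:59186632-59186868 (plus), Pmvk chr3:89366175-89366424 (plus), Soat2 chr15:102058547-102058796 (plus), Abca1 chr4:53159901-53160150 (minus) and Abcg1 chr17:31276411-31276648 (plus).
Hmgcs1: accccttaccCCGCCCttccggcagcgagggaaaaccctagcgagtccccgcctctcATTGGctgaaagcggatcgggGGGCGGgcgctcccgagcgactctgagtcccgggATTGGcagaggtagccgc
Sqle: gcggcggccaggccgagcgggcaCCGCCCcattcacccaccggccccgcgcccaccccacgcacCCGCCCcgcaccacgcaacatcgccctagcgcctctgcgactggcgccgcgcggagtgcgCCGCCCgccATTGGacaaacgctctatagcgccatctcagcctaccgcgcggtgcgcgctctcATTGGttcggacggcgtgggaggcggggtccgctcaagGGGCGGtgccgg
Pmvk: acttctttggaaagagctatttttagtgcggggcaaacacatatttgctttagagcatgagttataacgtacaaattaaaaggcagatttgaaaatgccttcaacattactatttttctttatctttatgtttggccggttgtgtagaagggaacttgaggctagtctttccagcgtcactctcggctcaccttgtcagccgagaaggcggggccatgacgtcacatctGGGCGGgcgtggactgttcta
Soat2: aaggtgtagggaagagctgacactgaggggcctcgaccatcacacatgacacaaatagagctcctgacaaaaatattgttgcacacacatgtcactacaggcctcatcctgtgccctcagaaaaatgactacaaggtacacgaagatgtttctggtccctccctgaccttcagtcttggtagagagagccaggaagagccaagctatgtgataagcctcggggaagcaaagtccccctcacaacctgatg
Abca1: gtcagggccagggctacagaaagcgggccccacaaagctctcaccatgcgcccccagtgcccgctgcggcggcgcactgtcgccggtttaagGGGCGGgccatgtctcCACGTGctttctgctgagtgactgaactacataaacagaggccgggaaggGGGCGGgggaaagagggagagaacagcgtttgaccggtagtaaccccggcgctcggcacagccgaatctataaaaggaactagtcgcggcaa
Abcg1: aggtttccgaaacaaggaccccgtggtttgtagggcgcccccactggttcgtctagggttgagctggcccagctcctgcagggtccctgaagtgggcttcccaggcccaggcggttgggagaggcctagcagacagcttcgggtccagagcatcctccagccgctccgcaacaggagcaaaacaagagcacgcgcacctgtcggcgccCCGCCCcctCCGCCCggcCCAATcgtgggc

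Hmgcs1 and Sqle hold paired CCAAT boxes in opposite orientation to the gene with GC boxes around them. Abca1 holds an E-box and 2 GC boxes, and Abcg1 a CCAAT box beside 2 GC boxes. Pmvk holds 1 GC box in this stretch and Soat2 none of the motifs. A match describes the letters and is not evidence of binding.

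The first enzymes of the pathway differed widely in mark strength. Hmgcs1, which makes HMG-CoA and commits acetyl units to the mevalonate route, was the strongest of them at its own start, with percentiles of 72.2 (WT), 75.9 (WT + 2HG) and 80.1 (CLPP-KO). Its peak was 858, 949 and 1243 bp wide in the same order. In CLPP-KO the widening lay mainly downstream, where the edge was 1076 bp past the start and 760 bp in WT. In WT + 2HG it lay upstream, with an edge at −189 bp instead of −97 bp. Acat2, which condenses acetyl-CoA, stood at 36.8, 40.3 and 35.7.

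Mvk, Pmvk and Mvd phosphorylate and decarboxylate mevalonate, and all had weak WT peaks. Mvk had 2 peaks in WT, of 362 bp at chr5:114581781-114582142 (percentile 27.6) and 626 bp at chr5:114582291-114582916 (24.2), with the start between them. In WT + 2HG a single peak of 1170 bp at chr5:114581669-114582838 spanned the gap, overlapped both and stood at 58.0. In CLPP-KO there were again 2, of 488 bp at chr5:114581659-114582146 (26.9) and 644 bp at chr5:114582288-114582931 (43.9). The Mvk difference of 30.4 points in WT + 2HG was the largest of the 30 genes there, 24.6 in equal-sized lists, and 3.60% of coding genes had a difference as high. In CLPP-KO it was 16.3 points, and 3.68 in equal-sized lists. When the areas of all promoter peaks were summed, Mvk stood at 42.6, 58.0 and 54.8, and the joined WT + 2HG peak was then no longer as far above the others. The start of Mmab, an enzyme of cobalamin metabolism that shares this promoter region, lay within the same window, and the upstream Mvk peaks were nearest to it.

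Pmvk, the next kinase, was the only gene of the 30 with a peak in WT and none in WT + 2HG. Its WT peak of 301 bp at chr3:89366626-89366926 had an area of 221 and stood at 1.28, close to the lowest area in that list (200). In CLPP-KO it measured 595 bp at chr3:89366597-89367191 and stood at 17.4, and in WT + 2HG the nearest peak to the start lay 27610 bp away. Both Pmvk peaks were thus among the weakest of their lists, and neither had a summit p of 1e-05 or smaller. Over all genes, 0.914% of those with a WT promoter peak had none in WT + 2HG and 0.672% had none in CLPP-KO, against 1 of 26 and 0 of 26 cholesterol genes. Mvd had peaks of 206 bp at chr8:123169926-123170131 (4.43), 279 bp at chr8:123169842-123170120 (9.20) and 545 bp at chr8:123169598-123170142 (19.6) in WT, WT + 2HG and CLPP-KO. The CLPP-KO difference of 15.1 points became −2.96 in equal-sized lists, and in equal-sized lists Mvd had no WT + 2HG peak.

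Idi1, Fdps and Ggps1 isomerize and join isoprenoid units. Idi1 had peaks of 820 bp at chr13:8935555-8936374 (12.3), 685 bp at chr13:8935517-8936201 (33.6) and 907 bp at chr13:8935519-8936425 (34.8). Its differences from WT, 21.3 and 22.5 points, were still 12.1 and 7.88 in equal-sized lists. Fdps went the other way. It had a WT peak of 1338 bp at chr3:89007815-89009152 (44.2), 2 WT + 2HG peaks of 860 bp at chr3:89007999-89008858 (18.99) and 207 bp at chr3:89009010-89009216 (0.612), and a CLPP-KO peak of 1187 bp at chr3:89008001-89009187 (37.2). The Fdps difference of −25.2 points in WT + 2HG was the lowest of the 30 genes, −36.5 in equal-sized lists, and 0.570% of coding genes had one as low. Both WT + 2HG peaks lay inside or at the edge of the stretch that the WT peak covered.

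The highest percentile of the whole list belonged to a window that Ggps1 shares. Ggps1 makes geranylgeranyl diphosphate, a branch away from sterols. The stronger of its 2 peaks measured 1505 bp at chr13:14238278-14239782 in WT (99.4), 1476 bp at chr13:14238294-14239769 in WT + 2HG (96.8) and 1475 bp at chr13:14238292-14239766 in CLPP-KO (98.2), all upstream of the canonical start. The weaker one, past the start, measured 662 bp at chr13:14237285-14237946 (30.0), 731 bp at chr13:14237308-14238038 (53.1) and 787 bp at chr13:14237177-14237963 (39.6). A start of Arid4b, a chromatin regulator gene, was nearest to every one of these summits, and under assignment to the nearest start Ggps1 had no peak at all.

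Late synthesis begins with Fdft1, which joins farnesyl units to squalene. At its start Fdft1 had peaks of 621 bp at chr14:63414795-63415415 (46.4), 647 bp at chr14:63414788-63415434 (36.7) and 601 bp at chr14:63414814-63415414 (36.5). Its CLPP-KO difference of −9.87 points was among the 4 lowest, and −24.1 in equal-sized lists. A second peak about an internal annotated start was present in WT + 2HG, 602 bp at chr14:63401833-63402434 (24.9), and in CLPP-KO, 416 bp at chr14:63402027-63402442 (19.4), and overlapped no WT peak.

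Sqle, the oxygenase that acts on squalene before ring closure, had a wider peak in WT + 2HG and in CLPP-KO than in WT. Its peak measured 1379 bp at chr15:59186427-59187805 in WT (52.5), 1714 bp at chr15:59186364-59188077 in WT + 2HG (59.8) and 2057 bp at chr15:59186418-59188474 in CLPP-KO (72.4). The CLPP-KO difference of 19.9 points was 13.7 in equal-sized lists. The added 678 bp lay almost entirely downstream, where the edge was 1592 bp past the start instead of 923 bp, and 6.62% of coding genes widened as much. Lss, which closes the ring to lanosterol, stood at 41.3, 38.8 and 58.4, a difference of 17.1 points in CLPP-KO and 7.78 in equal-sized lists, with widths of 929, 1016 and 1021 bp. Lss was therefore higher in CLPP-KO and not in WT + 2HG, where its equal-sized difference was −10.9.

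The genes that trim lanosterol to cholesterol ranged from unmarked to strong. Cyp51, the lanosterol demethylase, had the strongest late-synthesis peak in every list, 1276 bp at chr5:4153653-4154928 (86.4), 1298 bp at chr5:4153723-4155020 (85.6) and 1328 bp at chr5:4153681-4155008 (90.3). Msmo1, the C4-methyl oxidase, stood at 38.7, 41.5 and 45.1 and Tm7sf2, a sterol reductase, at 24.3, 26.2 and 29.1. In equal-sized lists both were lower than in WT, with differences between −11.1 and −5.36 points.

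Hsd17b7, a ketosteroid reductase of the same steps, was absent from WT, where the nearest peak lay 204998 bp from its start. Its WT + 2HG peak of 599 bp at chr1:169796328-169796926 stood at 15.4 with a summit −log10 p of 5.44. In CLPP-KO it measured 456 bp at chr1:169796293-169796748 and stood at 4.94 with a summit −log10 p of 3.48. Both peaks were weak, and the CLPP-KO one was missing from the equal-sized list.

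Ebp, a sterol isomerase on chromosome X, had peaks of 505 bp at chrX:8058578-8059082 (6.26), 573 bp at chrX:8058566-8059138 (18.9) and 573 bp at chrX:8058607-8059179 (33.1), all past the canonical start. The CLPP-KO difference of 26.9 points was the highest among synthesis genes, 11.8 in equal-sized lists. Dhcr7, the final reductase, had 2 weak WT peaks, 316 bp at chr7:143383443-143383758 at the canonical start (2.86) and 317 bp at chr7:143376021-143376337 (6.16) near the start of Nadsyn1. At the canonical start the WT + 2HG peak measured 489 bp at chr7:143383409-143383897 (23.3) and the CLPP-KO peak 367 bp at chr7:143383482-143383848 (18.6). Taken from the stronger WT peak, near Nadsyn1, the differences of Dhcr7 were 17.1 points with 2HG and 12.4 in the knockout, or 6.43 and −5.90 in equal-sized lists. Taken from the WT peak at the canonical start, they were 20.4 and 15.7 in the full lists.

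Sc5d, the sterol desaturase before Dhcr7, stood at a lower percentile in WT + 2HG and in CLPP-KO than in WT. It had peaks of 706 bp at chr9:42174972-42175677 (86.0), 952 bp at chr9:42174964-42175915 (63.1) and 929 bp at chr9:42174939-42175867 (65.3). The differences were −23.0 and −20.7 points, and −28.1 and −28.5 in equal-sized lists. Only 0.977 and 0.911% of coding genes had differences as low. The Sc5d peak was nevertheless wider in both than in WT, with most of the added width upstream of the start.

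**Figure D2:**
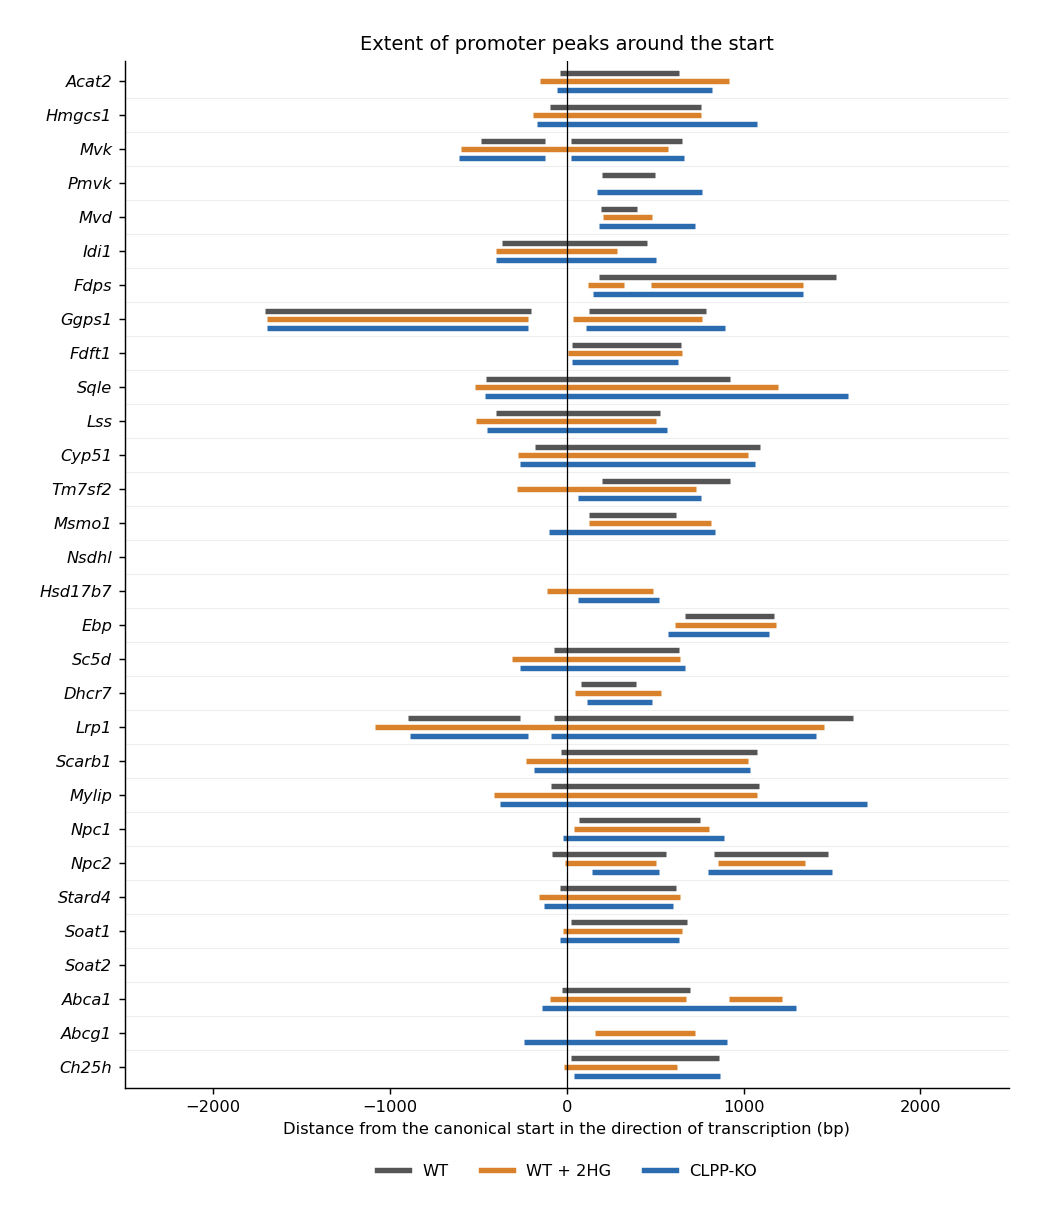
Extent of each promoter peak (bars) around the canonical start of its gene (vertical line at 0, distance in bp in the direction of transcription) for the 3 lists; peaks of Fdft1 and Dhcr7 beyond the axis are not drawn. The 2 WT peaks of Mvk (362 and 626 bp) and of Lrp1 are single bars in WT + 2HG, and the bars of Sqle (2057 bp), Mylip (2074 bp) and Abca1 (1438 bp) are longest in CLPP-KO.

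The genes grouped under uptake all stood above the coding-gene medians. They were the receptors Lrp1 and Scarb1 and, as a regulator that acts against uptake, the ligase Mylip. Lrp1, an endocytic receptor for lipoproteins and many other ligands, had 2 WT peaks, of 1696 bp at chr10:127455396-127457091 (95.9) and 640 bp at chr10:127457279-127457918 (11.6). In WT + 2HG a single peak of 2539 bp at chr10:127455563-127458101 (92.9) covered the gap. In CLPP-KO there were peaks of 1500 bp at chr10:127455609-127457108 (82.5) and 667 bp at chr10:127457237-127457903 (22.6). The CLPP-KO difference of −13.4 points was −17.3 in equal-sized lists, and 3.76% of coding genes had one as low. Scarb1, the high-density lipoprotein receptor, stood at 74.3, 74.6 and 73.4. Mylip had peaks of 1180 bp at chr13:45543126-45544305 (96.8), 1489 bp at chr13:45542802-45544290 (93.7) and 2074 bp at chr13:45542841-45544914 (94.5). Its percentile hardly differed between lists while its CLPP-KO peak was 894 bp wider than in WT, a gain that 3.11% of coding genes equalled or passed.

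The genes of intracellular movement and storage were intermediate and, in equal-sized lists, lower than WT in all comparisons but 1. Npc1, which exports cholesterol from lysosomes, stood at 67.7, 74.4 and 64.8, and was the exception in WT + 2HG (3.14 points in equal-sized lists). Its partner Npc2 had 2 peaks in every list. The stronger measured 648 bp at chr12:84819137-84819784 (41.9), 492 bp at chr12:84819271-84819762 (33.3) and 703 bp at chr12:84819115-84819817 (36.4). The other, whose summit was nearest to a start of the iron–sulfur protein gene Isca2, measured 646 bp at chr12:84820055-84820700 (16.4), 520 bp at chr12:84820110-84820629 (11.3) and 381 bp at chr12:84820094-84820474 (9.57).

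Stard4 carries sterol between membranes, and Soat1 esterifies cholesterol for storage in lipid droplets. Stard4 had peaks of 657 bp at chr18:33346296-33346952 (39.2), 798 bp at chr18:33346274-33347071 (28.3) and 735 bp at chr18:33346312-33347046 (33.2). Soat1 had peaks of 660 bp at chr1:156301220-156301879 (55.6), 675 bp at chr1:156301247-156301921 (43.9) and 672 bp at chr1:156301268-156301939 (55.8). These were 2 of the 4 lowest WT + 2HG differences, −10.9 for Stard4 and −11.7 for Soat1, and −20.9 and −19.5 in equal-sized lists. Soat2 had its nearest peaks at Igfbp6, a neighbouring gene, at distances of 5355, 5037 and 4793 bp from its start.

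The 2 efflux pumps were stronger in the CLPP-KO list than in the others. Abca1, which loads cholesterol onto apolipoproteins, had a WT peak of 723 bp at chr4:53159205-53159927 (30.2). In WT + 2HG a peak of 774 bp at chr4:53159224-53159997 (36.8) was joined by a second of 303 bp at chr4:53158682-53158984 (6.87), farther into the gene, which overlapped no WT peak. In CLPP-KO 1 peak of 1438 bp at chr4:53158602-53160039 covered all of these positions and stood at 61.4. The difference of 31.2 points was the highest of the 30 genes in CLPP-KO, 22.5 in equal-sized lists, and 5.12% of coding genes had one as high. In WT + 2HG it was 6.58, and −2.21 in equal-sized lists.

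Abcg1, which moves cholesterol to high-density lipoproteins, had no WT promoter peak, and the nearest lay 238066 bp away. In WT + 2HG it had a weak peak of 566 bp at chr17:31276821-31277386 (11.9, summit −log10 p 4.84). In CLPP-KO it had one of 1149 bp at chr17:31276418-31277566 (49.1, summit −log10 p 10.996), whose edges lay at −243 and 905 bp from the start. The CLPP-KO peak was kept and the WT + 2HG peak lost in equal-sized lists and at a summit p of at most 1e-05. Abcg1 and Hsd17b7 were the 2 of the 4 genes unmarked in WT that had a peak in WT + 2HG, and the same 2 had one in CLPP-KO, against 11.6 and 14.9% of coding genes unmarked in WT. With 4 genes these counts are small, and both lists were set against the same WT list. Ch25h, which makes the oxysterol 25-hydroxycholesterol, stood at 19.5, 18.6 and 31.7, with a CLPP-KO difference of 12.3 points that became −3.09 in equal-sized lists.

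**Figure D3:**
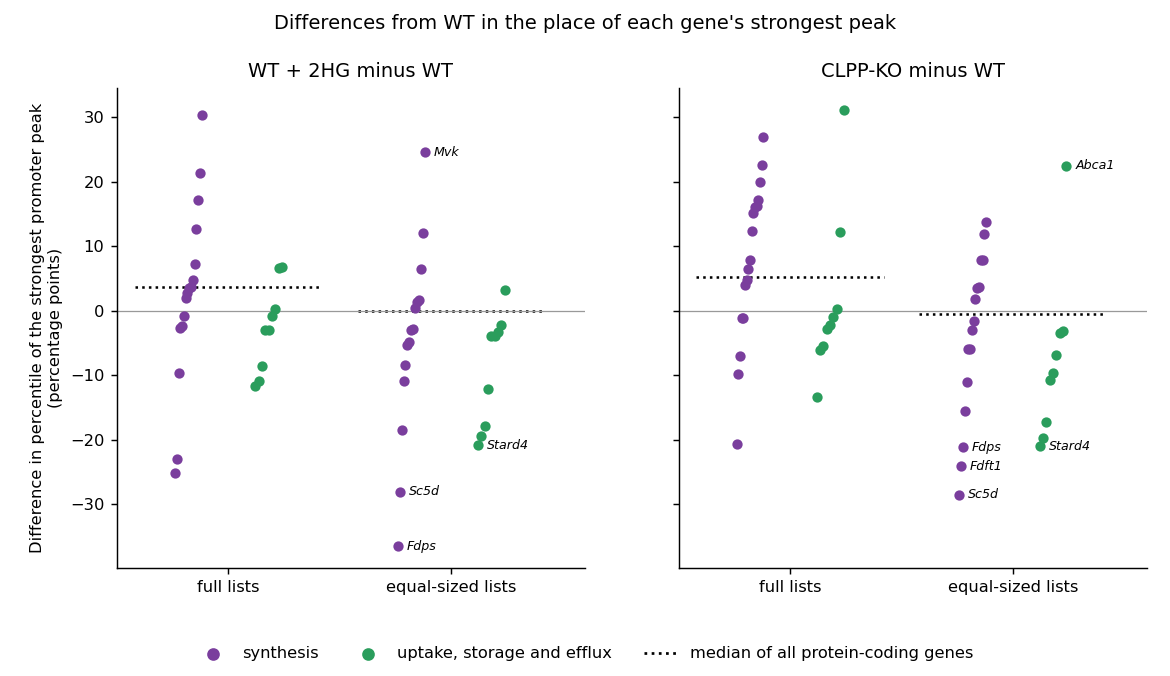
Difference in percentile from WT (percentage points, vertical axis) of each gene's strongest promoter peak for WT + 2HG and CLPP-KO, in the full lists and in lists cut to the same 12342 peaks; points are genes of synthesis or of uptake, storage and efflux, names mark the points farthest from 0 in equal-sized lists, and dotted lines give the median over all protein-coding genes. Cutting the lists lowers most points, and Abca1 (22.5) and Mvk (24.6) stay high.

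Synthesis genes as a group stood lower in the lists than the pooled uptake, storage and efflux genes in WT and CLPP-KO, with wide overlap. Their median percentiles were 38.7 (17 genes) and 55.6 (9) in WT, 38.8 (17) and 40.3 (10) in WT + 2HG, and 36.9 (18) and 58.6 (10) in CLPP-KO. The differences of −16.9, −1.51 and −21.7 points had the same sign in every list. The pooled group was mixed, however. In WT, WT + 2HG and CLPP-KO the uptake genes, Mylip included, had medians of 95.9, 92.9 and 82.5. Movement and storage genes had 48.7, 38.6 and 46.1. Efflux and oxysterol genes had 24.9 (2 genes), 18.6 (3) and 49.1 (3). The efflux and oxysterol median was thus below that of synthesis in WT, and in WT + 2HG only the uptake median was above it. Synthesis genes ranged from 1.28 to 99.4 in WT, and the others from 19.5 to 96.8. Over genes marked in all lists the medians were 40.0, 39.6 and 40.5 for 16 synthesis genes and 55.6, 43.9 and 61.4 for 9 others. The smaller gap in WT + 2HG went with the lower place of Soat1 there. Its values, 55.6 in WT and 43.9 in WT + 2HG, were the medians of the 9 others marked in all lists. The weak new peak of Abcg1 (11.9) added a low value to the 10 genes of WT + 2HG.

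Between conditions the groups also differed, and the length of the lists bore on it. The percentile was higher than in WT for 13 of 25 genes in WT + 2HG and 15 of 26 in CLPP-KO, against 64.4 and 69.8% of all coding genes. Synthesis genes were higher in 10 of 16 and 12 of 17 cases and the others in 3 of 9 and 3 of 9. The median difference of the cholesterol genes was 0.247 points with 2HG and 4.38 in the knockout, while that of all coding genes was 3.69 and 5.27. In equal-sized lists 7 of 24 and 8 of 25 genes were higher, with medians of −3.97 and −5.89, against 49.7 and 47.3% of coding genes with medians of −0.0446 and −0.535. Of the uptake, storage and efflux genes 1 of 9 was then higher in each, Npc1 in WT + 2HG and Abca1 in CLPP-KO. Among synthesis genes 6 of 15 and 7 of 16 were higher, with medians of −3.08 and −2.28. The direction of the median difference thus depended on the set of peaks within which percentiles were taken. Ranked by summit p in the full lists, the CLPP-KO median was 8.85 for the cholesterol genes and 7.53 for all coding genes. Ranked by area among coding genes marked in every list, a setting added after the data were seen, 9 of 16 synthesis genes were higher in CLPP-KO, with a median of 0.463, and 1 of 9 of the others. Single genes such as Mvk in WT + 2HG and Sqle and Abca1 in CLPP-KO were higher than in WT in both the full and the equal-sized lists.

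Peak widths differed from WT about as those of other genes did, from a narrower base (median 714.5 bp in WT, against 901 bp). The strongest promoter peak was wider than in WT for 20 of 25 genes in WT + 2HG and 20 of 26 in CLPP-KO, against 71.8 and 71.5% of all coding genes. The median difference was 87 bp and 89.5 bp, and 96 bp and 88 bp over all coding genes. At the canonical start, the median upstream edge of the 25 genes lay at −32, −156 and −91 bp in WT, WT + 2HG and CLPP-KO, and −39, −130 and −121 bp over 10470 coding genes. The downstream edge lay at 695, 733 and 840 bp, and at 827.5, 857 and 863 bp over the coding genes. Summits lay past the start for 22 of 25 genes in WT and for 23 in each of the other lists, against 88.4, 89.1 and 89.7% of coding genes. A second promoter peak was present at 5 marked genes in each list, 19.2, 18.5 and 17.9% of them, and at 17.4, 16.3 and 16.9% of marked coding genes. Position and peak number were thus close to those of other promoters.

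Another 36 sterol-handling genes, among them carriers, oxysterol enzymes and further receptors, were counted beside the list. Promoter peaks were present at 25, 27 and 26 of them in WT, WT + 2HG and CLPP-KO, against 51.3, 56.4 and 58.2% of all coding genes. Their median percentiles were 53.3, 59.6 and 62.1. The percentile was higher than in WT for 16 of 25 in WT + 2HG and 17 of 25 in CLPP-KO, with median differences of 3.65 and 6.65. Over all coding genes these shares were 64.4 and 69.8%, with medians of 3.69 and 5.27, so these genes stood near that background. The differences are from the full lists, and equal-sized values were not computed for these genes. None of the 25 lost its peak, against 0.914 and 0.672% of coding genes marked in WT. Those newly listed, named after their values were seen, were Gramd1b, a sterol carrier of membrane contact sites, in both other lists (percentiles 41.0 and 79.0) and the transporter gene Abca7 in WT + 2HG only (13.1). Of all coding genes unmarked in WT, 11.6% were newly listed in WT + 2HG and 14.9% in CLPP-KO.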

How the data were processed

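ChIP–seq of H3K4me3 was performed in 12 samples, 4 per condition, with 3 inputs. Per the labels and the study's methods, the authors trimmed reads with fastp 0.23.4, mapped them to GRCm39 with BWA 0.7.17 and called peaks with Genrich 0.6.1, which removed duplicates and combined the p-values of the 4 replicates. deepTools 3.5.4 was also named, for coverage plots. In each deposited list the signal of a peak is the area under the curve and the next field its summit −log10 p, and the deposited score is limited to 1000. The deposited q field (another number) is −1 throughout and the smallest area is 200, and peaks on chromosome X are present (276, 383 and 413 in WT, WT + 2HG and CLPP-KO), although the study's command gives a q threshold, a lower minimum area and leaves chromosome X out. The settings behind the lists are therefore uncertain, and values for Ebp and Nsdhl most of all. Neither replicate spread nor depth can be read from pooled lists, so precision is unknown and no test was made.

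Transcript starts came from GENCODE M39 (78289 genes, 21770 protein-coding), and all peaks lay inside GRCm39 chromosomes. Percentiles, widths, overlaps (at least 1 bp) and motifs (300 bases at the canonical start) were computed with Python 3.11.15, pandas 2.3.3, numpy 2.4.6, scipy 1.17.1, statsmodels 0.14.6, pysam 0.24.0 and matplotlib 3.10.9. On simulated data 200 of 200 planted promoter peaks and 200 of 200 planted motifs were found. The gene list, its groups and the comparisons were chosen with earlier results of these data known. All 30 genes are accounted for. Full values are given for genes whose status differs between lists, those with 2 or more promoter peaks in a list, the 5 highest and 5 lowest in WT, and the 4 highest and 4 lowest differences of WT + 2HG and of CLPP-KO from WT. The other sterol-handling genes and cell type markers were fixed lists too. Alternatives changed the window, the starts, the assignment of peaks, list size, threshold, overlap, ranking and reference set. Read density and transcriptomes were not analysed here.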

Additional observations from a re-analysis of the deposited data

How the results depend on the processing

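No paired analysis was possible because the 4 replicates of a condition were called together, and no value without a single replicate could be computed for the same reason. The count of genes marked in WT was 20 instead of 26 at a summit p of at most 1e-05, and the median width difference then 116 and 103 bp (WT + 2HG and CLPP-KO). With equal-sized lists, which contain fewer weak peaks by construction, 1 gene was gained in WT + 2HG and 1 in CLPP-KO, 2 were missing from WT + 2HG and 1 from CLPP-KO, and 2 WT + 2HG promoter peaks overlapped no WT peak. With a summit p of at most 1e-05, 6 of the 10 genes then unmarked in WT were gained in each of the other lists, 0 were missing from WT + 2HG, and the peaks without a WT counterpart numbered 7 with 2HG and 8 in the knockout. Over all coding genes, 7.26 and 8.39% of those unmarked in WT were gained in equal-sized lists and 2.30 and 3.35% of those marked were missing (WT + 2HG and CLPP-KO), and at the stricter p these shares were 13.1, 15.0, 0.325 and 0.364%. With the most 5′ start alone, 1 gene was missing from CLPP-KO.

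The sign of the median percentile difference depended on the reference. For WT + 2HG (0.247) it was −3.97 in equal-sized lists, −0.0973 at the stricter p, 2.03 ranked by summit p, 1.90 by summed area, −0.624 among promoter peaks and −5.05 among coding genes marked in all lists, a setting chosen after seeing the data. For CLPP-KO (4.38) the values were −5.89 in equal-sized lists, −0.751 at the stricter p, 8.85 by summit p, 2.45 among promoter peaks and −4.49 among those coding genes. The median of the synthesis genes stayed below the pooled median of the uptake, storage and efflux genes in every setting. In WT (−16.9) the difference was −19.3 at the stricter p, −24.2 by summit p and −14.3 by summed area. In WT + 2HG (−1.51) it was −0.0498 with the most 5′ start, −4.89 in equal-sized lists, −5.70 at the stricter p, −11.0 by summit p and −4.65 among coding genes. In CLPP-KO (−21.7) it was −14.7 with the most 5′ start, −16.4 by summit p, −18.6 by summed area, −23.0 among promoter peaks and −25.7 among coding genes. Cutting the lists removes weak peaks by construction, so list length cannot be told apart from a gain of peaks. The cause of the changes of sign was not tested.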
